A study of Mus musculus with 9 samples.

Results

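ATP-binding cassette (ABC) transporters were followed in mouse liver RNA. They were taken as the protein-coding genes whose symbol begins with Abc, a subfamily letter from a to g and a digit, and 48 of the 42188 genes in the deposited table met that rule. Of these, 37 had enough counts to be tested, and 35 of them are described by role; 11 had not. Abca12, Abca15, Abca16 and Abcb5 had 0 counts in all 9 libraries, and Abcg4, Abca14, Abca4, Abcc12, Abca17, Abcc8 and Abca13 never passed 0.257 FPKM (fragments per kilobase scaled to library depth, a level per gene length). Abca5 and Abcb1b are not analysed here.

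The study set 3 groups of 3 wild-type mice side by side, labelled as 8-week-old male C57BL/6J animals of 20 to 25 g. Control mice were injected with PBS (buffered saline) in the tail vein. ConA mice received 20 mg/kg of concanavalin A, a jack bean lectin used to provoke T cell driven hepatitis, by that route. MSA_ConA mice were first given MSA at 250 mg/kg by intraperitoneal injection, with the lectin following 6 h later; mesaconate stands in the study's title and is taken here to be MSA. Livers were collected 12 h after the lectin. Nothing in the labels gives a vehicle injection into the peritoneum for the other groups, so the effect of that injection cannot be told apart from that of the compound.

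Libraries held 13294600 to 17276391 counts. They are called by their labels (Control 1 to MSA_ConA 3), although transcripts of sex, strain and time of day divided them by number. Those of sex and strain went against the labels of the 6 numbered 2 or 3. Xist, the RNA of the silenced X chromosome of females, lay at most at 0.0283 FPKM in number 1 and at 38.0 to 65.8 FPKM in the others. Nnt, which is partly deleted in C57BL/6J, lay at 3.95 to 4.58 against 21.8 to 34.0 FPKM, and the clock gene Dbp at 2.05 to 3.47 against 32.8 to 83.7 FPKM. Sex, strain, hour of sampling and any other difference between number 1 and the rest cannot be told apart. All 6 hepatocyte markers in the table were present in every library, with sums of 86032 to 136223 CPM (counts scaled to library depth, not to gene length). Since a liver holds many cell types, fewer cells of a type and less RNA per cell cannot be told apart in any of these values.

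ABC proteins use ATP to move a substrate across a membrane. In hepatocytes, several sit on the canalicular membrane and make bile: one pumps bile salts, one flips phosphatidylcholine, a pair secretes sterols, and others export conjugated bilirubin, drugs and glutathione conjugates. Others face the blood, load cholesterol onto lipoproteins, or import fatty acyl-CoA into peroxisomes and serve mitochondria, while the E and F subfamilies have no membrane part and act on ribosomes. Bile salts and oxysterols regulate many of these genes through nuclear receptors, and inflammation is known to lower canalicular transporters in liver.

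By level, Abcb11 led the Control libraries at 122.7 ± 48.3 FPKM (SD, n = 3), followed by Abcd3 at 71.1 ± 3.03 and Abcc6 at 65.8 ± 6.62 FPKM. All 3 Control libraries of Abcb11 lay above those of the other 2 genes, while the ranges of Abcd3 and Abcc6 overlapped. Abcg5, Abcc3 and Abcc2 came next at 42.8 ± 3.84, 42.5 ± 6.78 and 40.6 ± 4.92 FPKM and did not differ beyond their spread. All 48 genes together took 0.353% of the counts of Control 1, 0.190% of ConA 1 and 0.213% of MSA_ConA 1, against 0.424% to 0.561% in the 6 libraries numbered 2 or 3. These are shares of plain library totals. The FPKM of the 48 genes summed to 662 in Control 1, 489 in ConA 1 and 638 in MSA_ConA 1. In the 6 other libraries the sums were 599 to 805 FPKM, so only ConA 1 lay below that range.

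**Figure D1:**
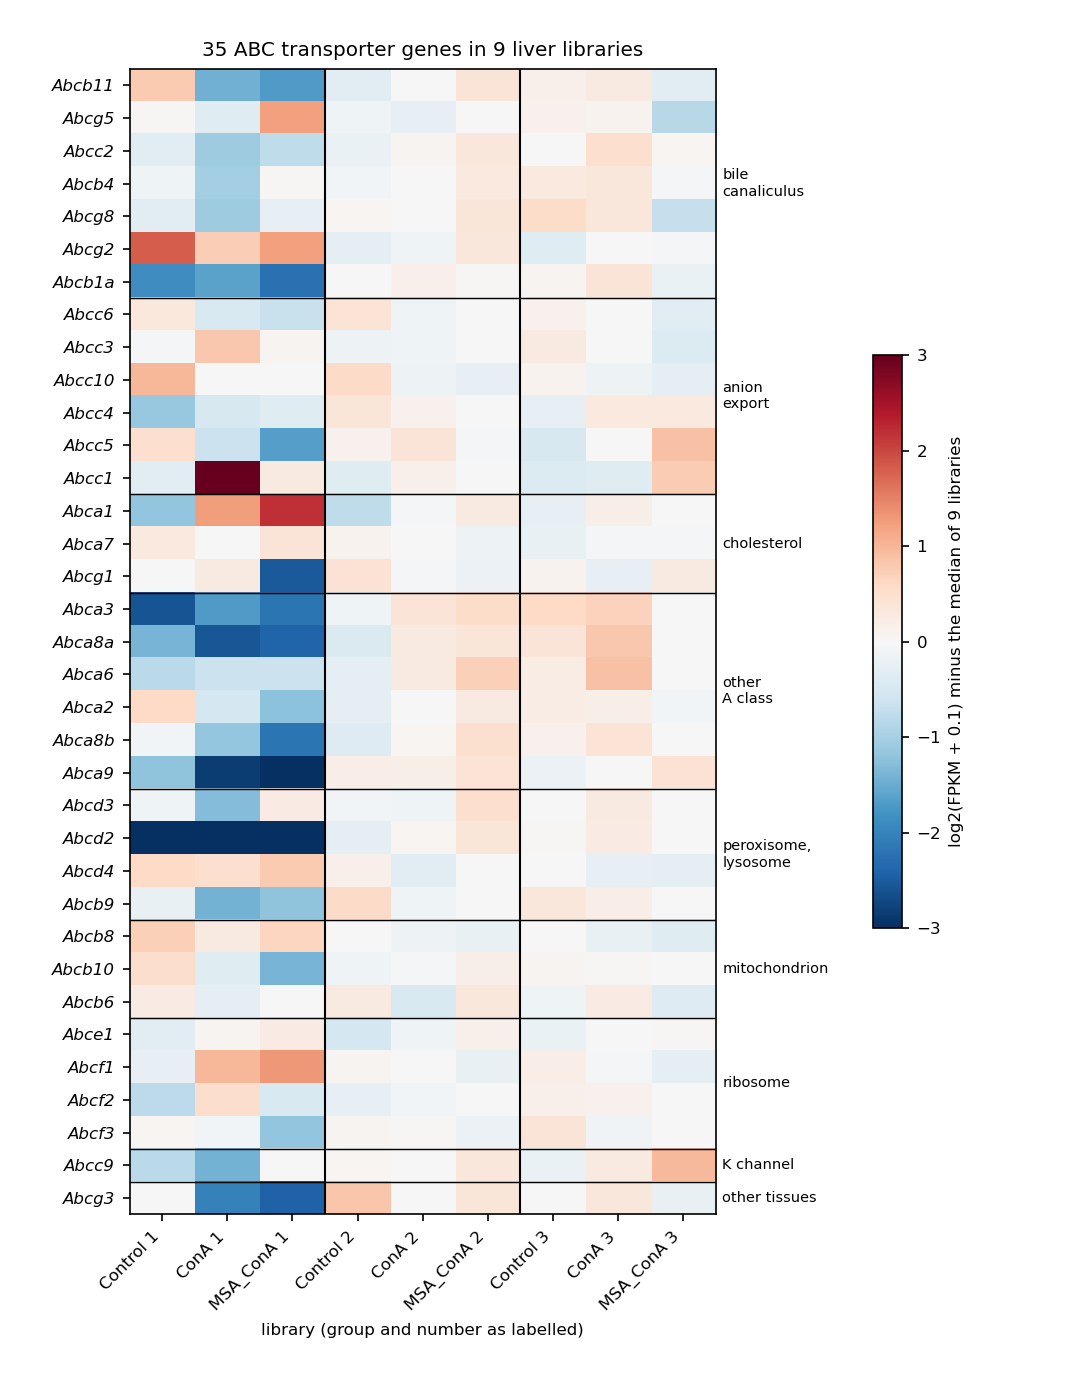
Level of 35 tested ABC transporter genes (rows, ordered by role) in 9 libraries (columns, ordered by number), as log2(FPKM + 0.1) minus the gene's median over the libraries. The strongest colours lie in the 3 columns numbered 1, where Abcd2 is low in all 3 and Abcc1 is high in ConA 1.

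Compared as labelled, 3 libraries against 3, no ABC transporter gene was called as different between groups. Library number is not in this model, so differences by number add to the spread, and 0 calls do not show equal levels. In edgeR's quasi-likelihood test with Benjamini-Hochberg adjustment over 14603 genes, 0 of 37 were called at an adjusted p under 0.05 for ConA against Control, for MSA_ConA against ConA and for MSA_ConA against Control, and 0% of all genes were. DESeq2 and limma-voom called 0 of the 37 as well. At an unadjusted p under 0.05 the numbers were 2, 0 and 2 of 37 genes, against 563, 248 and 730 of all 14603. For ConA against Control they were Abcc1 (log2 fold change 3.03, SE 1.07) and Abcc10 (-0.72, SE 0.29), and for MSA_ConA against Control they were Abca1 (1.83, SE 0.65) and Abcc10 (-0.81, SE 0.29); both comparisons use the same Control libraries. The levels of ConA and Control did not overlap for 5 of 37 genes (13.5%, against 12.2% of all genes): Abca1 and Abce1 were higher and Abcc10, Abcc6 and Abcf3 lower in all 3 ConA libraries. Those of MSA_ConA and ConA overlapped for all 37 (4.82% of all genes did not overlap).

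The clearest division was by library number. Number 1 was set against numbers 2 and 3 with the group in the model, and 16 of 37 genes (43.2%) passed the test, against 38.3% of all genes. Of these 3 were higher in number 1 (19.1% of all genes) and 13 lower (19.2% of all genes), which are 8.11% and 35.1% of the members. The median log2 fold change was -0.52 over the 37 and -0.10 over all genes. Scaling by plain library totals instead of TMM (trimmed mean of M values) moved the median of all genes to -0.81 and gave 0 higher and 21 lower, with the 3 higher genes no longer past the threshold. Abcb8 and Abcd4 also lost their calls when no filter on low counts was used. The levels of the 3 libraries numbered 1 lay wholly outside those of the other 6 for 14 of 37 genes (37.8%, against 34.0% of all genes). Leaving out ConA 1 reduced the calls to 8, all among the 16. Within Control alone 11 genes passed, 9 of them among the 16, against 27.8% of all genes; there number 1 is the single library Control 1, whose spread is taken from the libraries numbered 2 and 3 of all groups.

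**Figure D2:**
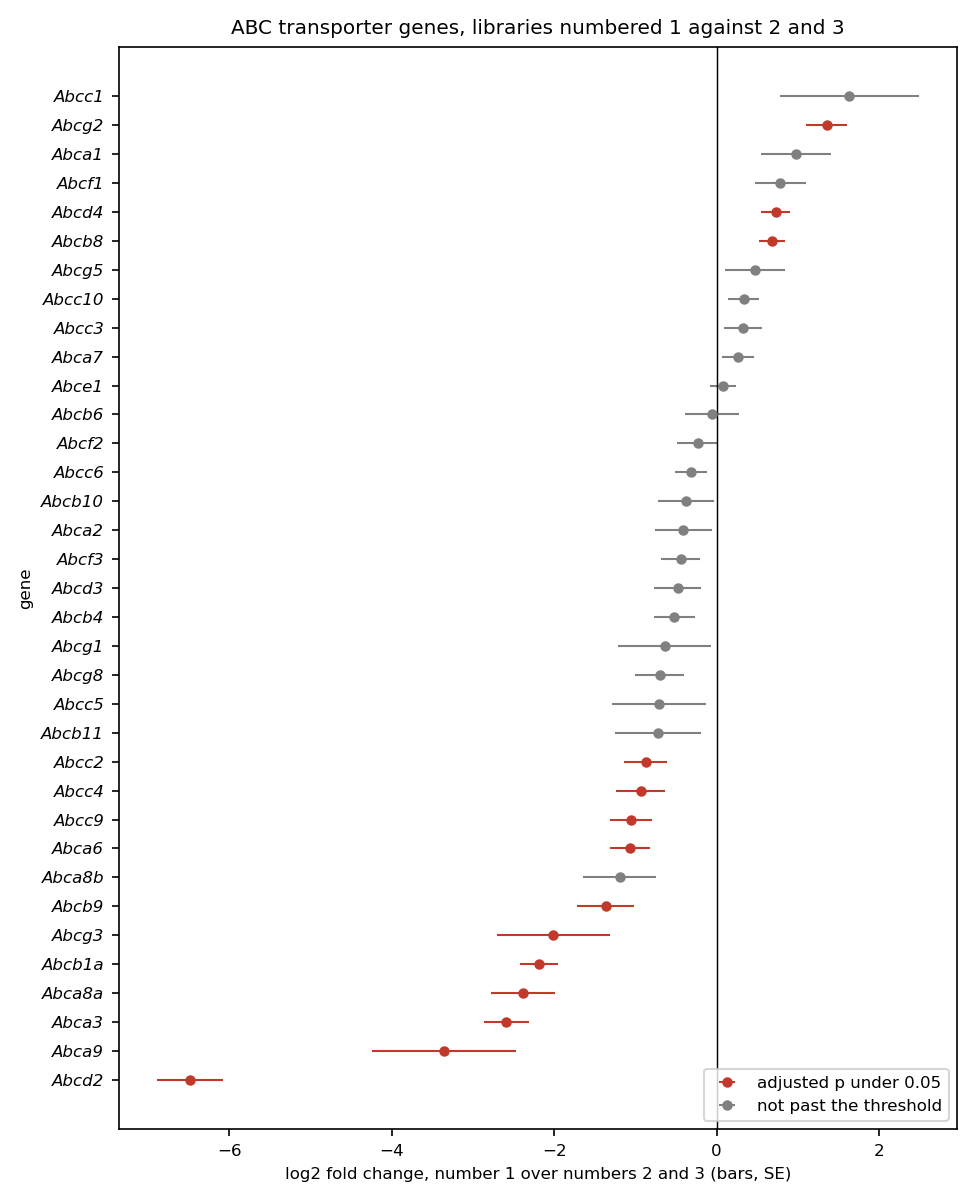
Log2 fold change of 35 tested genes between the 3 libraries numbered 1 and the 6 numbered 2 or 3, with bars for the SE. Red points passed an adjusted p under 0.05; Abcd2 lies farthest out at -6.48, and the 3 red points right of 0 are Abcg2, Abcd4 and Abcb8.

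The lectin effect also depended on the number. Whether the ConA effect in number 1 differed from that in numbers 2 and 3 was tested as an interaction, which assumes that the lone library of a group in number 1 varies like the others, and 13 of 37 genes (35.1%) passed, against 31.1% of all genes. Of these 4 were shifted higher (15.7% of all genes) and 9 lower (15.4% of all genes). The fit could not be made without Control 1 or ConA 1, so no alternative leaves these out. Without Control 2 or without ConA 3, 7 of the 13 passed, and limma on log2(FPKM + 1) kept 8, losing Abca2, Abca8a, Abca8b, Abca9 and Abcc2. Between the single libraries ConA 1 and Control 1, 31 members reached 5 CPM in one or both, and 4 of them differed upward by 2-fold or more (24.2% of all such genes) and 8 downward (18.9%). Neither ConA 2 nor ConA 3 had any of 35 such genes 2-fold apart from the Control library of its number. Few of all such genes were: 238 higher and 73 lower of 10111 for ConA 2. For ConA 3 they were 32 higher and 60 lower of 9796. Plain library totals moved the median of all interactions from -0.09 to -0.63 and gave 3 higher and 16 lower calls.

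With MSA before the lectin, 7 of 37 interactions (18.9%) passed, against 18.7% of all genes. They were 2 shifted higher (8.59% of all genes) and 5 shifted lower (10.1% of all genes). With limma-voom 3 passed, and Abcd3, Abcb10 and Abcf3 were among those that did not. Likewise no fit could be made without ConA 1 or MSA_ConA 1. The count fell to 3 without ConA 2 and to 2 without ConA 3, and plain library totals, which moved the median of all genes from -0.01 to -0.28, gave 1 higher and 7 lower. From ConA 1 to MSA_ConA 1, 5 of 31 genes were at least 2-fold higher (14.9% of all such genes) and 7 at least 2-fold lower (19.5%). In the other 2 number pairs, 1 gene was 2-fold apart, Abcc1 in MSA_ConA 3. Of all such genes, MSA_ConA 2 had 46 higher and 190 lower than ConA 2, of 10073. MSA_ConA 3 had 505 higher and 44 lower than ConA 3, of 10245. Ratios between single libraries have no replicates, and the 95% exact intervals given with them cover counting error only.

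**Figure D3:**
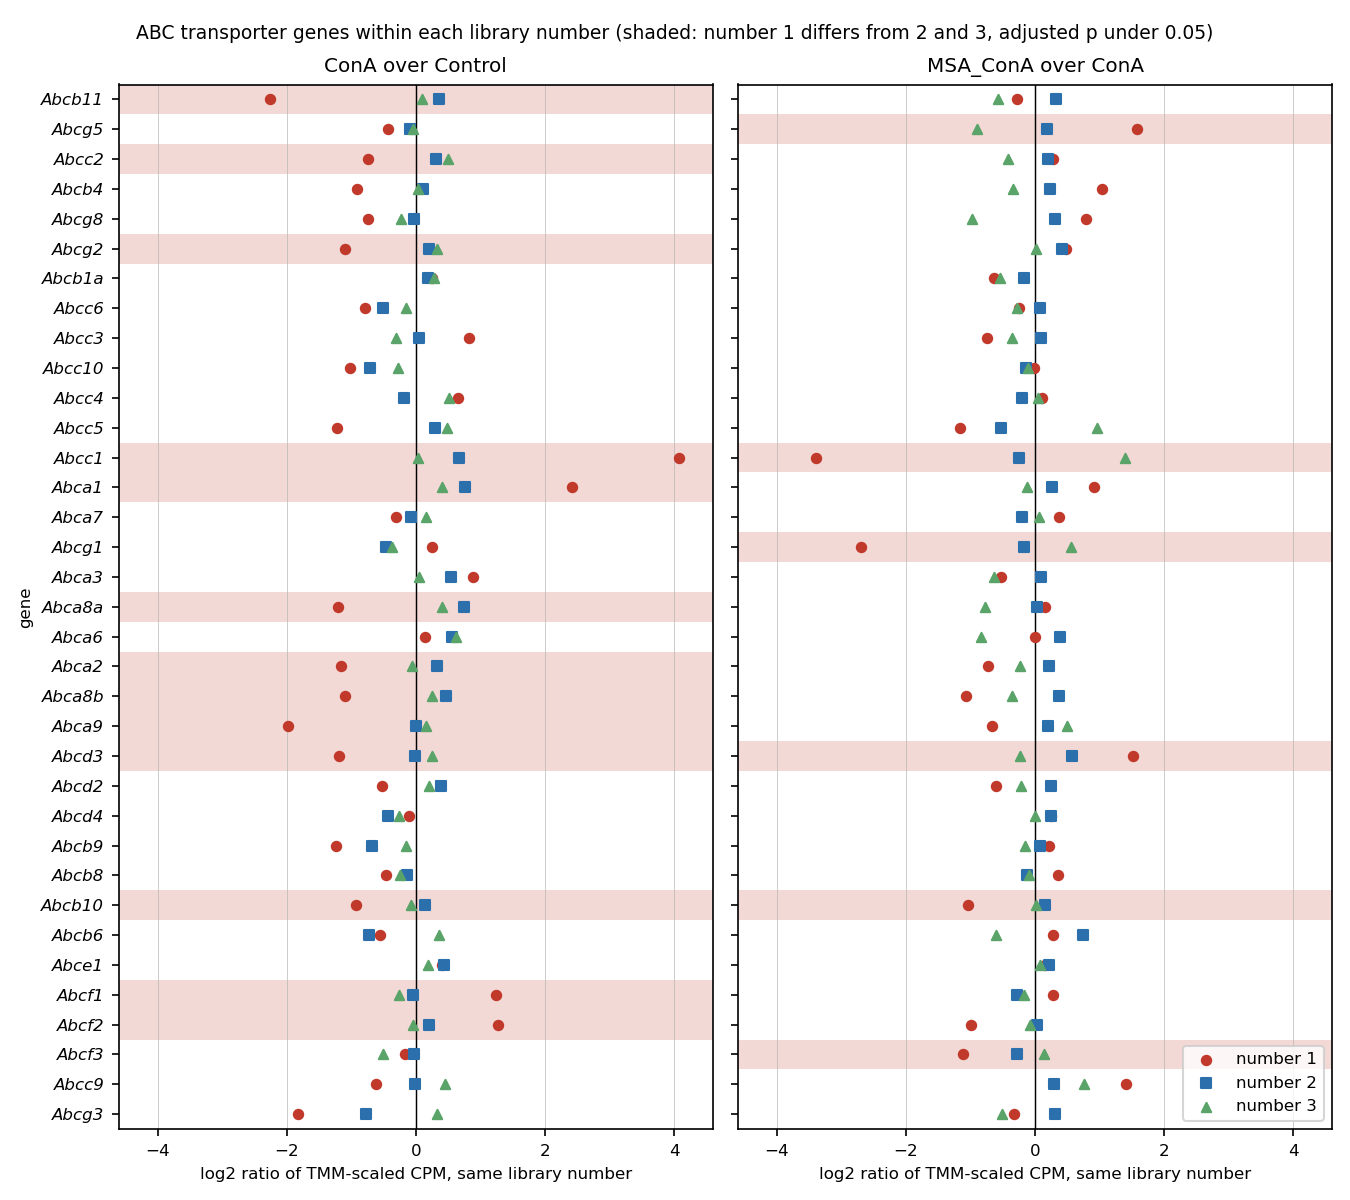
Log2 ratio of TMM-scaled CPM between libraries of the same number, ConA over Control on the left and MSA_ConA over ConA on the right, for 35 genes (rows) and 3 numbers (symbols), each ratio from 1 library over 1 library. Shaded genes passed the interaction test; the red circles of number 1 spread far from 0, to 4.08 for Abcc1 on the left, while most squares and triangles lie close to it.

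Among the canalicular exporters, the bile salt pump gene Abcb11 showed the largest fall in number 1 after the lectin. In numbers 1, 2 and 3, Abcb11 measured 176, 80.9 and 112 FPKM in Control, 37.05, 101 and 122 FPKM in ConA, and 31.0, 132 and 79.3 FPKM in MSA_ConA. Control 1 was thus the highest of the 9 libraries and ConA 1 and MSA_ConA 1 the lowest, with both outside the range of numbers 2 and 3. ConA 1 was 4.78-fold below Control 1 (95% interval 4.56 to 5.02), and the interaction was -2.47 (SE 0.46, adjusted p 0.00813), past the threshold under all 16 alternatives. The MSA interaction was -0.19 (SE 0.46, adjusted p 0.81).

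Abcc2, whose protein exports conjugated bilirubin and glutathione conjugates, moved in the same direction by less. It measured 36.2, 39.7 and 45.9 FPKM in Control, 21.7, 48.5 and 65.6 FPKM in ConA, and 26.9, 58.1 and 47.4 FPKM in MSA_ConA. Every library numbered 1 lay below every other. The division by number was -0.88 (SE 0.26, adjusted p 0.0286) and the ConA interaction -1.16 (SE 0.33, adjusted p 0.0334). Both calls depend on single libraries: the first was lost without any one of Control 3, ConA 1 to ConA 3 and MSA_ConA 1 to MSA_ConA 3 (adjusted p 0.0517 to 0.11), the second without Control 2, Control 3 or ConA 3 (0.0680 to 0.0953).

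The promoters of both genes are shown because both transcripts were lower in ConA 1 than in Control 1. RefSeq windows of 300 bases around the transcription start (GRCm38.p6, not the build of the deposited table) were matched by symbol for 36 of the 48 genes. Each was searched on both strands for AGGTCA, the core recognition site of nuclear receptors; TGACNNNGC, the core of the antioxidant response element bound by NRF2; CACGTG, the E-box of clock and basic helix-loop-helix factors; and TTANGTAA, the D-box of the factor encoded by Dbp and its relatives. The sequences are the 250 bases before the start, 5′ to 3′ along the gene, with matches in capitals. The Abcb11 stretch is chr2:69342617-69342866 on the minus strand and the Abcc2 stretch chr19:43782058-43782307 on the plus strand.
Abcb11: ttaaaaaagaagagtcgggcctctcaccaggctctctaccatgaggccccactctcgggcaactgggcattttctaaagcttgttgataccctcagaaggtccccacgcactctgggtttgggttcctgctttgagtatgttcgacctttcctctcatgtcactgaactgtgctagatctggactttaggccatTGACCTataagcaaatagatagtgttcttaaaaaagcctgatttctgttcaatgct
Abcc2: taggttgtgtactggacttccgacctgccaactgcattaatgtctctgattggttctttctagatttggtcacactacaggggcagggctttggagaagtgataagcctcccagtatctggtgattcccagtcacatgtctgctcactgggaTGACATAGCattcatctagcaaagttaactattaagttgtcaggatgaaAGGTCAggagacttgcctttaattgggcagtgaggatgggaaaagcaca
Abcb11 held 1 receptor site, read as TGACCT on this strand and beginning 56 bases before the start. Abcc2 held 1 antioxidant core, beginning 98 bases before the start, and 1 receptor site beginning 49 bases before it. A match is only a match of letters: 16.3% of all 32851 windows held the receptor site and 12.4% the antioxidant core, as did 16.3% of the 43 ABC windows in both cases.

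Abcb4, the phosphatidylcholine floppase, measured 24.9, 25.8 and 33.1 FPKM in Control, 13.3, 27.2 and 34.5 FPKM in ConA, and 27.8, 33.4 and 26.4 FPKM in MSA_ConA. ConA 1 was the lowest of the 9 and MSA_ConA 1 lay within the range of the rest, 2.06-fold above ConA 1 (95% interval 1.92 to 2.21). Neither interaction passed the test (adjusted p 0.063 for ConA and 0.063 for MSA).

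Abcg5 and Abcg8 encode the subunits of 1 sterol exporter, which works only as a pair. Abcg5 measured 43.3, 38.7 and 46.3 FPKM in Control, 32.5, 35.6 and 45.6 FPKM in ConA, and 99.1, 42.1 and 23.7 FPKM in MSA_ConA. Abcg8 measured 20.3, 26.7 and 37.3 FPKM in Control, 12.2, 25.6 and 32.2 FPKM in ConA, and 21.5, 33.2 and 15.7 FPKM in MSA_ConA. For both subunits ConA 1 was below its Control and MSA_ConA 1 above ConA 1, but by different amounts: 3.00-fold for Abcg5 (95% interval 2.77 to 3.25) and 1.73-fold for Abcg8 (1.53 to 1.96). MSA_ConA 1 had the highest Abcg5 level of the 9 libraries and MSA_ConA 3 the lowest. The MSA interaction was 1.90 for Abcg5 (SE 0.46, adjusted p 0.0303) and 1.04 for Abcg8 (SE 0.58, adjusted p 0.24). That of Abcg5 was lost without Control 2, Control 3, ConA 2 or ConA 3 (adjusted p 0.0511 to 0.0837).

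The pair is transcribed outward from a shared stretch, shown because its 2 transcripts moved by different amounts. In the deposited coordinates of the C57BL/6NJ assembly Abcg5 spans chr17:90951431-90976891 on the minus strand and Abcg8 chr17:90977001-90997723 on the plus strand, 109 bases apart. The RefSeq starts in GRCm38.p6 leave 109 bases as well, chr17:84683012-84683120, given here on the plus strand, which is that of Abcg8.
Abcg5-Abcg8 interval: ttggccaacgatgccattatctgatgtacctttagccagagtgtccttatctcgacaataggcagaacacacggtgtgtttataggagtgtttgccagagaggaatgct
None of the 4 motifs occurs in these letters.

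Abcg2, an exporter of drugs, urate and porphyrins, was the canalicular gene that was higher in number 1. It measured 16.3, 3.72 and 3.57 FPKM in Control, 7.69, 4.20 and 4.59 FPKM in ConA, and 10.9, 5.86 and 4.47 FPKM in MSA_ConA. All libraries numbered 1 lay above all others, by a log2 fold change of 1.35 (SE 0.26, adjusted p 0.00534); scaled by library totals it was 0.67 (adjusted p 0.15). From Control 1 to ConA 1 it fell 2.14-fold (95% interval 1.94 to 2.37), with a ConA interaction of -1.37 (SE 0.27, adjusted p 0.00964) that passed under all 16 alternatives.

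Abcb1a, a P-glycoprotein that exports drugs, measured 0.601, 2.46 and 2.62 FPKM in Control, 0.735, 2.75 and 3.24 FPKM in ConA, and 0.446, 2.52 and 2.13 FPKM in MSA_ConA. Number 1 was below the rest in each group, by -2.18 over all groups (SE 0.23, adjusted p 7.74e-04), and passed under all 21 alternatives. Its interactions were 0.04 for ConA and -0.37 for MSA, far from the threshold (adjusted p 0.95 and 0.52). Reads may be shared with a close paralogue.

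**Figure D4:**
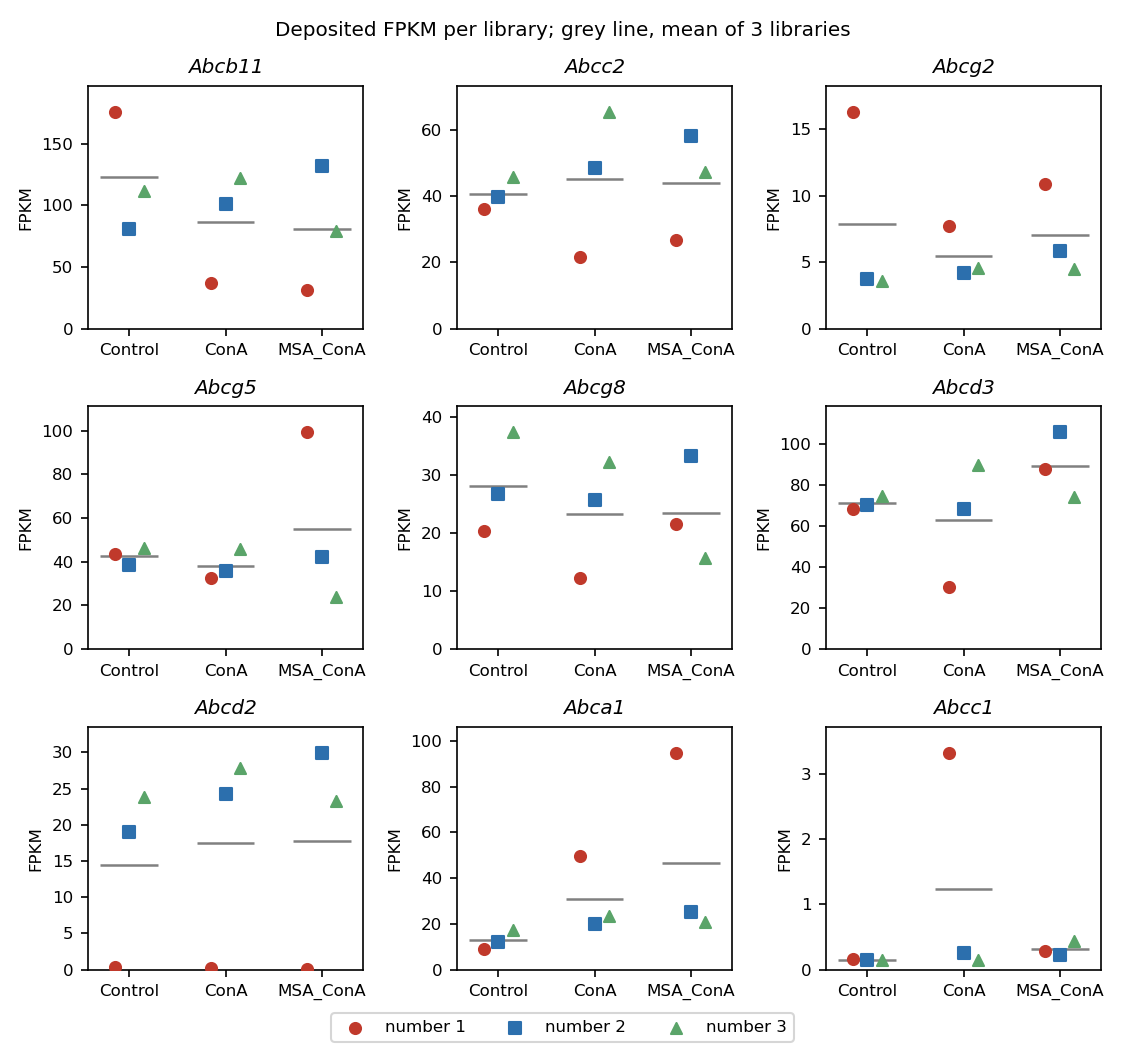
Deposited FPKM of 9 ABC transporter genes in each library, by group on the horizontal axis and with the library number as the symbol; grey lines are means of 3 libraries. Abcd3 dips in ConA 1, and Abcb11 is low in both ConA 1 and MSA_ConA 1. Abca1 and Abcc1 peak in libraries numbered 1, and Abcd2 lies near 0 in all 3 of them.

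Of the exporters that face the blood or lie on other plasma membranes, Abcc1 had the largest change. Its protein exports glutathione conjugates and leukotriene C4 and is scarce in resting hepatocytes. It measured 0.157, 0.150 and 0.141 FPKM in Control, 3.33, 0.258 and 0.148 FPKM in ConA, and 0.284, 0.221 and 0.443 FPKM in MSA_ConA. ConA 1 stood above all others, 21.0-fold over Control 1 (95% interval 14.1 to 32.6, from 420 and 26 counts) and 11.9-fold over MSA_ConA 1 (7.998 to 18.4). The interactions were 3.90 for ConA (SE 0.75, adjusted p 0.00874) and -4.27 for MSA (SE 0.74, adjusted p 0.0104). The first passed under all 16 alternatives and the second under 15, failing only the stricter adjusted p of 0.01.

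Marker sums of some other cell types also peaked in ConA 1. Those of hepatocytes, Kupffer cells, monocytes and macrophages, B cells, sinusoidal endothelium, stellate cells, skeletal muscle, adipocytes and exocrine pancreas did not peak there. The 5 neutrophil markers summed to 399 CPM there, with none at 0, to 55.4 CPM in MSA_ConA 1 with 1 at 0, and to 0.937 to 2.74 CPM elsewhere with 1 or 2 at 0. The 5 cholangiocyte markers, none at 0 in any library, summed to 784 CPM in ConA 1, 116 CPM in MSA_ConA 1 and 48.8 to 68.0 CPM elsewhere. Of these markers, Sox9 measured 154 FPKM in ConA 1 and 0.842 FPKM in Control 1. Krt19 alone was lower in ConA 1, at 2.15 FPKM against 2.60 FPKM in Control 1. The part of any cell type in the Abcc1 level was not tested.

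Abcc5, which exports cyclic nucleotides, measured 1.61, 1.21 and 0.758 FPKM in Control, 0.671, 1.47 and 1.10 FPKM in ConA, and 0.279, 1.04 and 2.12 FPKM in MSA_ConA. It was 2.42-fold lower in ConA 1 than in Control 1 (95% interval 1.85 to 3.19) and 2.44-fold lower again in MSA_ConA 1 (1.498 to 4.13), without passing either interaction test (adjusted p 0.10 and 0.19). Abcc10 measured 6.41, 4.80 and 3.42 FPKM in Control, 3.17, 2.85 and 2.84 FPKM in ConA, and 3.18, 2.68 and 2.56 FPKM in MSA_ConA. All 3 Control libraries of Abcc10 lay above all 6 others, although neither group comparison passed the test, and its ConA interaction was -0.51 (SE 0.32, adjusted p 0.26).

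Abcc4, an exporter of bile salts and nucleotides toward the blood, measured 0.491, 1.58 and 1.01 FPKM in Control, 0.833, 1.34 and 1.51 FPKM in ConA, and 0.916, 1.21 and 1.52 FPKM in MSA_ConA. Number 1 lay below the rest by -0.94 (SE 0.30, adjusted p 0.0379), a call lost without any one library other than MSA_ConA 1 (adjusted p 0.0527 to 0.0785). Abcc3, the basolateral exporter of glucuronides, ranged from 31.2 to 71.9 FPKM with its highest value in ConA 1, and Abcc6, which lets hepatocytes release ATP and so limits mineralization elsewhere, from 33.6 to 71.7 FPKM. Neither passed a group comparison, the number comparison over all groups or an interaction; within ConA alone, ConA 1 lay above ConA 2 and ConA 3 for Abcc3 by 0.84 (adjusted p 0.0202), with 1 library on one side.

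The cholesterol exporters split. Abca1, which loads cholesterol and phospholipid onto apolipoprotein A-I, rose in ConA 1 and stood higher still in MSA_ConA 1. It measured 9.09, 12.2 and 17.3 FPKM in Control, 49.5, 20.1 and 23.3 FPKM in ConA, and 94.6, 25.0 and 20.7 FPKM in MSA_ConA. Every library given the lectin was above every Control, and the 2 highest of the 9 were both numbered 1. ConA 1 was 5.39-fold above Control 1 (95% interval 5.07 to 5.73), with an interaction of 1.87 (SE 0.35, adjusted p 0.0085) that passed under all 16 alternatives. The further step to MSA_ConA 1 had an interaction of 0.84 (SE 0.35, adjusted p 0.13).

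Abcg1, which passes cholesterol to high-density lipoprotein and is prominent in macrophages, measured 1.42, 1.97 and 1.53 FPKM in Control, 1.72, 1.37 and 1.17 FPKM in ConA, and 0.165, 1.25 and 1.72 FPKM in MSA_ConA. MSA_ConA 1 alone was low: it had 5 counts against 72 in ConA 1, a 10.6-fold difference (95% interval 4.34 to 33.6), and the MSA interaction was -3.61 (SE 0.61, adjusted p 0.0096), past the threshold under all 16 alternatives. The 5 Kupffer cell markers, none at 0 in any library, summed to 116 CPM in MSA_ConA 1, 185 CPM in ConA 1 and 171 to 327 CPM in the other libraries. Marco alone of them stood above the libraries numbered 2 or 3 in MSA_ConA 1, at 9.64 against 0.337 to 1.16 FPKM. Only Marco and Cd5l were lower in MSA_ConA 1 than in ConA 1, where they measured 30.9 and 32.0 FPKM. The part of Kupffer cells in the Abcg1 level was not tested. Abca7 ranged only from 1.82 to 2.83 FPKM and passed none of these tests.

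The Abca1 promoter is shown because the gene stood apart from Abcg1 in number 1. Its 250 bases before the start are chr4:53159896-53160145 on the minus strand (GRCm38.p6), with the match in capitals.
Abca1: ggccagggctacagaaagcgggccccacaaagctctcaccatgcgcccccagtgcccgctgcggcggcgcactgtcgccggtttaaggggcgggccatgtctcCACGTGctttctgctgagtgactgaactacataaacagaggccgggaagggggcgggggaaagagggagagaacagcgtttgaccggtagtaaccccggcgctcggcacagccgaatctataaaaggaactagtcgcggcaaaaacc
The capitals are an E-box beginning 147 bases before the start, a motif found in 7.15% of all windows and in 6 of the 43 ABC windows. The D-box occurred in 2.32% of all windows and in 0 of the 43.

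Among the other lipid transporters of the A subfamily, all 6 tested members were below 0 in the division by number under TMM scaling and 4 passed the test. Of all 14603 genes, 6782 were above 0 and 19.2% were called lower. Abca3, which packs phospholipid into lamellar bodies in lung, measured 3.83, 21.7 and 36.1 FPKM in Control, 7.19, 31.1 and 37.9 FPKM in ConA, and 5.06, 34.6 and 23.6 FPKM in MSA_ConA. Number 1 was far below the rest in every group, by -2.59 (SE 0.27, adjusted p 7.68e-04), and passed under all 21 alternatives.

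Abca8b, Abca8a, Abca9 and Abca6 lie in that order, all on the minus strand, on chromosome 11 between 116948294 and 117289108 (C57BL/6NJ), a cluster of similar genes that may share reads. Abca8a measured 9.39, 18.3 and 32.4 FPKM in Control, 4.08, 30.2 and 43.8 FPKM in ConA, and 4.64, 32.2 and 24.8 FPKM in MSA_ConA. Abca9 measured 0.322, 1.02 and 0.769 FPKM in Control, 0.0363, 0.999 and 0.875 FPKM in ConA, and 0, 1.199 and 1.22 FPKM in MSA_ConA. Both were low in number 1 and lower in ConA 1 than in Control 1, where Abca9 had 3 and 35 counts. The division by number was -2.38 for Abca8a (SE 0.39, adjusted p 0.00336) and -3.36 for Abca9 (SE 0.88, adjusted p 0.0187), a fitted value that rests in part on the library with 0 counts; Abca9 lost its call without ConA 1 (adjusted p 0.0704).

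Abca6 measured 9.39, 13.6 and 19.3 FPKM in Control, 10.4, 19.8 and 30.4 FPKM in ConA, and 10.5, 26.9 and 16.5 FPKM in MSA_ConA. It stayed nearly level within number 1 and lay below the rest by -1.07 (SE 0.25, adjusted p 0.0124; 0.0518 without ConA 1). Abca8b measured 6.72, 5.37 and 7.73 FPKM in Control, 3.12, 7.30 and 9.38 FPKM in ConA, and 1.47, 9.85 and 7.06 FPKM in MSA_ConA, so that it was low only in the 2 number 1 libraries given the lectin. Abca2, a lysosomal lipid transporter known from the nervous system, measured 11.8, 6.30 and 8.96 FPKM in Control, 5.30, 7.72 and 8.77 FPKM in ConA, and 3.24, 9.34 and 7.26 FPKM in MSA_ConA, with the highest level in Control 1.

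The ConA interactions of Abca8a (-1.76), Abca8b (-1.47), Abca9 (-3.20) and Abca2 (-1.28) passed the test (adjusted p 0.0400, 0.0324, 0.00842 and 0.0324). That of Abca8a was lost without Control 2 (0.0586) or ConA 3 (0.0974), that of Abca8b without Control 2 (0.0658) or ConA 3 (0.0810), and that of Abca2 without Control 2 (0.0541), ConA 2 (0.0562) or ConA 3 (0.0796). That of Abca8b was also lost with limma on log2(FPKM + 0.1) (0.0501). Abca9 kept its call without each of the 7 libraries that could be left out, but it rests on Control 1 and on the 3 counts of ConA 1, and it was lost on log2(FPKM + 1) (adjusted p 0.18).

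Peroxisomes import fatty acyl-CoA through the D subfamily, and here 1 member came close to vanishing from number 1. Abcd2 measured 0.416, 19.0 and 23.8 FPKM in Control, 0.264, 24.2 and 27.9 FPKM in ConA, and 0.146, 29.9 and 23.3 FPKM in MSA_ConA. The highest library numbered 1 was below the lowest of the rest in each group, and the fitted log2 fold change of -6.48 (SE 0.41, adjusted p 7.56e-05) was the largest of the 37; it passed under all 21 alternatives. Within Control alone it was -5.70, from 1 library against 2.

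Abcd3, the abundant carrier that also brings bile acid precursors into peroxisomes, measured 68.5, 70.3 and 74.4 FPKM in Control, 30.2, 68.2 and 89.8 FPKM in ConA, and 87.9, 106 and 74.3 FPKM in MSA_ConA. Control libraries agreed closely, ConA 1 was the lowest of all 9, and MSA_ConA 1 lay within the range of the rest. ConA 1 was 2.29-fold below Control 1 (95% interval 2.18 to 2.41), and MSA_ConA 1 was 2.87-fold above ConA 1 (2.72 to 3.03). Abcd3 was the 1 gene of the 37 with an interaction shifted lower for ConA (-1.32, SE 0.36, adjusted p 0.0289) and higher for MSA (1.34, SE 0.36, adjusted p 0.0403); the 2 values share ConA 1. The first was lost without Control 2 (0.0736), Control 3 (0.0791) or ConA 3 (0.0861), the second without Control 2, Control 3, ConA 2, ConA 3 or MSA_ConA 3 (0.0606 to 0.12), and under library totals.

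Abcd4, which hands cobalamin out of lysosomes, measured 8.97, 6.58 and 5.91 FPKM in Control, 8.44, 4.73 and 4.96 FPKM in ConA, and 10.3, 5.86 and 4.82 FPKM in MSA_ConA. It was higher in number 1 by 0.72 (SE 0.18, adjusted p 0.0146), but by 0.0015 (adjusted p 1.0) when libraries were scaled by their totals. Abcb9, a lysosomal peptide transporter, measured 0.567, 1.06 and 0.882 FPKM in Control, 0.190, 0.618 and 0.797 FPKM in ConA, and 0.239, 0.680 and 0.684 FPKM in MSA_ConA. It was lower in number 1 by -1.37 (SE 0.35, adjusted p 0.0174; 0.0534 without ConA 1).

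Among the mitochondrial members, Abcb8 measured 12.7, 7.72 and 7.63 FPKM in Control, 9.25, 6.89 and 6.49 FPKM in ConA, and 12.01, 6.57 and 5.90 FPKM in MSA_ConA. It lay above the rest by 0.68 (SE 0.16, adjusted p 0.0119), yet its direction turned to -0.03 (adjusted p 0.90) under scaling by library totals.

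Abcb10, needed for haem synthesis in red cell precursors, measured 9.33, 5.80 and 6.77 FPKM in Control, 4.91, 6.26 and 6.55 FPKM in ConA, and 2.37, 7.25 and 6.39 FPKM in MSA_ConA. In number 1 it was lower after the lectin and lower again with MSA, and it was the 1 gene of the 37 whose interactions were both called lower, at -0.97 for ConA (SE 0.25, adjusted p 0.0250) and -1.15 for MSA (SE 0.27, adjusted p 0.0258). The first was lost without Control 2, ConA 2 or ConA 3 (0.0519 to 0.0666) and the second without ConA 2, ConA 3 or MSA_ConA 2 (0.0583 to 0.0744), and both with DESeq2. Abcb6, a porphyrin transporter, ranged from 0.579 to 1.07 FPKM and passed no test.

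Of the 4 ribosomal members, 2 were shifted higher by the ConA interaction, as were 15.7% of all genes. Abcf1, which acts in the start of translation, measured 14.95, 18.7 and 20.2 FPKM in Control, 35.7, 17.7 and 17.1 FPKM in ConA, and 44.0, 15.2 and 14.7 FPKM in MSA_ConA. The 2 lectin libraries numbered 1 stood clear of the other 7. ConA 1 was 2.37-fold above Control 1 (95% interval 2.18 to 2.57), with an interaction of 1.40 (SE 0.24, adjusted p 0.00559), the smallest adjusted p of the 37 in that test, past the threshold under all 16 alternatives.

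Abcf2 measured 9.49, 13.7 and 18.05 FPKM in Control, 23.5, 15.5 and 17.8 FPKM in ConA, and 11.9, 16.5 and 16.4 FPKM in MSA_ConA. Control 1 was its lowest library and ConA 1 its highest, 2.45-fold apart (95% interval 2.13 to 2.82), with an interaction of 1.22 (SE 0.29, adjusted p 0.0189; 0.0567 without ConA 2, and 0.085 under library totals). Abcf3 measured 15.1, 15.3 and 18.9 FPKM in Control, 13.6, 14.7 and 13.4 FPKM in ConA, and 6.32, 12.7 and 14.4 FPKM in MSA_ConA. MSA_ConA 1 was low for Abcf3, with an MSA interaction of -1.07 (SE 0.30, adjusted p 0.0467) that was lost without Control 2, ConA 2, ConA 3, MSA_ConA 2 or MSA_ConA 3 (0.0509 to 0.12). Abce1, which splits ribosomes after termination, ranged from 17.6 to 30.3 FPKM, with all 6 lectin libraries above all 3 Controls and no test passed.

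Abcc9, the regulatory subunit of potassium channels in muscle and vessel wall, measured 2.04, 3.80 and 3.17 FPKM in Control, 1.31, 3.67 and 4.45 FPKM in ConA, and 3.63, 4.70 and 7.34 FPKM in MSA_ConA. Number 1 was lower by -1.05 (SE 0.26, adjusted p 0.0137; 0.0510 without ConA 1). The highest library, MSA_ConA 3, also held most of the skeletal muscle RNA: the 7 muscle markers summed to 3415 CPM there with none at 0, to 47.5 to 277 CPM in ConA 2, ConA 3 and MSA_ConA 2, and to 0.521 to 1.72 CPM in the other 5, where 1 to 5 of the 7 were at 0. The 5 stellate cell markers, none at 0 in any library, summed to 437 CPM there and to 56.2 to 214 CPM elsewhere. Of these stellate markers, Des measured 40.6 FPKM in MSA_ConA 3 and at most 5.10 FPKM elsewhere. Rgs5, Col1a1 and, narrowly, Reln were also highest there. Lrat was not, at 4.15 FPKM against 6.54 FPKM in ConA 3. The part of muscle or stellate cells in the Abcc9 level was not tested. Abcg3, a rodent gene close to Abcg2, measured 0.647, 1.21 and 0.634 FPKM in Control, 0.0823, 0.643 and 0.847 FPKM in ConA, and 0.0379, 0.859 and 0.535 FPKM in MSA_ConA. Its division by number (-2.01, SE 0.69, adjusted p 0.0490) was lost without any one library other than Control 1 and Control 3 (0.0742 to 0.17).

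Genes that work with these transporters were counted from lists, each beside the background shares given above. Of 19 tested partners in bile flow, 3 were higher and 8 lower in number 1, and 2 were shifted higher and 5 lower in the ConA interaction. Slco1a4, a sinusoidal uptake carrier, lay at 3.60 to 9.13 FPKM in number 1 and 39.1 to 51.2 FPKM in the rest (-2.95, SE 0.31, adjusted p 7.68e-04). Atp7b, the copper exporter, lay at 1.199 to 3.33 against 6.98 to 8.98 FPKM (-2.21, adjusted p 0.00199). Ezr, which links membrane to actin, measured 15.9 FPKM in ConA 1 and 1.23 to 3.07 FPKM in the 8 others, and its ConA interaction was 3.22 (adjusted p 0.00157).

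Of 13 transcription factors known to act on ABC genes, 2 were shifted higher and 3 lower in the ConA interaction, and 2 were higher and 2 lower in number 1. Nr1h4, the bile salt receptor FXR that drives Abcb11, measured 76.3 FPKM in Control 1, 25.5 in ConA 1 and 31.0 in MSA_ConA 1, against 49.8 to 60.4 FPKM elsewhere (interaction -1.50, adjusted p 0.00478). Nr0b2, its target SHP, measured 75.9, 1.46 and 1.66 FPKM in the same 3 libraries and 34.3 to 76.9 FPKM elsewhere (interaction -5.65, adjusted p 0.00221). Both were low in the 2 libraries in which Abcb11 was lowest, each value being from 1 library. Any part of the factors named in this paragraph in the levels of ABC genes was not tested. Nr1h2, an oxysterol receptor of the LXR pair that drives Abca1, measured 20.6, 59.8 and 69.1 FPKM in the same order and 8.61 to 16.1 FPKM elsewhere (interaction 1.86, adjusted p 0.00272). The other receptor of that pair, Nr1h3, added after its values were seen, went the other way at 67.1, 38.9 and 26.6 FPKM, with 40.6 to 61.0 FPKM elsewhere, and its interaction of -0.40 did not pass the test (adjusted p 0.25).

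In the list of cholesterol efflux partners, 4 of 11 were higher and 2 lower in number 1, and 2 were shifted each way in the ConA interaction. Cyp7a1, which starts the classic route from cholesterol to bile acids, measured 12.2, 1.47 and 0.773 FPKM in Control 1, ConA 1 and MSA_ConA 1 and 103 to 241 FPKM elsewhere (division by number -5.53, adjusted p 0.00441). Apoe was higher in number 1 (2.10, adjusted p 0.00239) and Npc1, which moves cholesterol out of lysosomes, lower (-1.02, adjusted p 0.00443).

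Targets of NRF2, the regulator of antioxidant genes that also acts on Abcc1 and Abcc2, were shifted higher in 5 of 7 by the ConA interaction and lower in 6 of 7 by the MSA interaction. Hmox1, haem oxygenase, measured 8.74, 1637 and 71.7 FPKM in Control 1, ConA 1 and MSA_ConA 1 and 6.04 to 8.44 FPKM elsewhere. Srxn1 measured 23.5, 214 and 12.7 FPKM and 11.5 to 13.3 FPKM elsewhere, and Gsr 15.01, 58.3 and 15.9 FPKM and 10.9 to 15.4 FPKM elsewhere. Their ConA interactions were 7.89, 3.18 and 1.72 (adjusted p 1.38e-04, 4.16e-04 and 0.00728). Nqo1, alone of the 7, was lower in ConA 1 than in Control 1, at 8.44, 5.71 and 1.56 FPKM in the same 3 libraries. Abcc1 was high in ConA 1 and lower in MSA_ConA 1, whereas Abcc2 was lowest in ConA 1. Each value is from 1 library, and any part of NRF2 in the levels of Abcc1 and Abcc2 was not tested.

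Of 9 peroxisome partners, 2 were higher and 2 lower in number 1 and 1 was shifted higher in the ConA interaction. Ehhadh, of peroxisomal fatty acid oxidation, lay at 49.3 to 63.1 FPKM in number 1 and 105 to 164 FPKM in the rest (-1.26, adjusted p 0.00382), below them like Abcd2. Pex11a, which acts in peroxisome division, was shifted higher in the ConA interaction (1.01, adjusted p 0.0167). Of 14 haem and iron-sulfur partners, 5 were higher and 2 lower in number 1 and 3 were shifted each way in the ConA interaction, among them Cpox (number 1 lower, -2.01, adjusted p 0.00166), Slc25a28 (interaction 1.91, adjusted p 0.00212) and Uros (interaction -2.44, adjusted p 0.0024).

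Translation partners were shifted higher by the ConA interaction in 5 of 8 and lower in 0, as Abcf1 and Abcf2 were. Examples were the release factor Etf1 (1.47, adjusted p 0.00835), the ribosome rescue factor Pelo (1.38, adjusted p 0.0342) and Gcn1l1 (1.14, adjusted p 0.0107). Tap1 and Tap2, ABC proteins that load antigen peptides and whose symbols fall outside the rule, measured 78.8 and 17.2 FPKM in ConA 1, and 3.86 to 7.05 and 4.74 to 8.22 FPKM in the 8 others. Their ConA interactions were 3.64 and 1.68 (adjusted p 2.87e-04 and 0.00677).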

How the data were processed

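Liver RNA of 9 mice was sequenced from total RNA, per the labels' protocols, in libraries made with an Illumina kit. The authors deposited raw counts per gene and FPKM. In the deposited FPKM table, dividing counts by length and by a library-specific total built from DESeq2-type size factors returned every value. Per the submitters' processing notes, mm8, mm10 and Bowtie 0.12.2 are listed, their roles unstated. How RNA was selected and reads were counted is not given in the sources used here. Gene coordinates are those of C57BL/6NJ. M in a column name was read as MSA_ConA, from its initial.

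Members, lists, rules and tests were chosen with earlier results of these data known. Counts were tested with edgeR 4.0.16 quasi-likelihood in R 4.3.3 (TMM, default expression filter by group, 14603 genes kept, adjusted p under 0.05 over all of them). The group comparisons had 6 residual degrees of freedom, the number comparison 5 and the interactions 3. SE is the log2 fold change divided by the root of the test statistic. A single-library ratio compares TMM-scaled counts, with 95% exact intervals; log2 ratios add 0.5 CPM. The scripts were tested on simulated data. P-values of the group comparisons measure the spread between 3 libraries a group, 1 per mouse per the labels. Those of the number comparison measure the spread left once group and number are in the model. In the interaction fit each group has 1 library in number 1, which adds nothing to the spread. The spread there comes only from the libraries outside number 1.

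Some genes counted in the totals are not reported here. For the others, values were printed in all libraries for members that passed any test or differed 2-fold between libraries numbered 1, others by range; up to 3 genes per pathway list were named by smallest p in the number or ConA interaction test. Other settings tried were limma-voom (limma 3.58.1), DESeq2 1.42.0, size factors of relative log expression, library totals, other filters, an adjusted p of 0.01, limma on log2(FPKM + 1) and log2(FPKM + 0.1), blocks and leaving out each library; the number comparison within each group was added after seeing the data. The numbers were taken to pair libraries, but only number 1 stood apart. Deviations from group means correlated at 0.489 to 0.720 within number 1, 0.364 to 0.575 within number 2 and 0.337 to 0.493 within number 3. Numbers 2 and 3 correlated at 0.332 to 0.706 with each other, so pairing within these 2 numbers is not shown.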

Additional observations from a re-analysis of the deposited data

Results flagged for a closer look

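The effect of the lectin, ConA against Control, differed between library number 1 and numbers 2 and 3 in 13 genes by an interaction term in edgeR's quasi-likelihood test (differences in log2 fold change in parentheses, adjusted p 0.00559 to 0.0400). The effect was shifted higher in number 1 for Abcf1 (1.40), Abca1 (1.87), Abcc1 (3.90) and Abcf2 (1.22), and lower for Abcb11 (-2.47), Abca9 (-3.20), Abcg2 (-1.37), Abcb10 (-0.97), Abcd3 (-1.32), Abca2 (-1.28), Abca8b (-1.47), Abcc2 (-1.16) and Abca8a (-1.76).

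The effect of MSA before the lectin, MSA_ConA against ConA, differed in the same way in 7 genes, of which 6 are given here (adjusted p 0.0096 to 0.0467). It was shifted higher in number 1 for Abcg5 (1.90) and Abcd3 (1.34), and lower for Abcg1 (-3.61), Abcc1 (-4.27), Abcb10 (-1.15) and Abcf3 (-1.07). Of all genes, 31.1% passed the ConA interaction test and 18.7% the MSA one, near the 35.1% and 18.9% of the 37 members. Number 1 has 1 library in each group, and sex, strain and hour of sampling cannot be told apart there.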

How the results depend on the processing

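The group comparisons called 0 members under every alternative run, the replicate block (library number) included, which gave 0 in all 3 and changed no other call. At an adjusted p of 0.01 the members called were 6 for number 1 against numbers 2 and 3, 6 for the ConA interaction and 1 for the MSA interaction. Limma on log2(FPKM + 1) gave 8 for the ConA interaction and limma-voom 3 for the MSA interaction. At a 3-fold bound, 3 members were apart between ConA 1 and Control 1 and 2 between MSA_ConA 1 and ConA 1. Leaving out each library gave 8 to 23, 7 to 14 and 2 to 7 members for the number comparison and the ConA and MSA interactions; the low ends are those without ConA 1, without Control 2 or ConA 3, and without ConA 3, and those without the only number 1 library of a compared group could not be fitted. Abcb8 in the number comparison reversed to -0.034 under library totals. Of the named members' values, 532 kept direction and side of the threshold, 1 reversed and the others lost the call; the cause was not tested. Members under about 1 FPKM rest on few counts, and 3 counts equal 0.155 to 0.396 CPM.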
